A study of Arabidopsis thaliana with 6 samples.

Results

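Flowering in Arabidopsis thaliana is timed by a small set of genes on which the day-length, temperature, age and vernalization pathways meet, and 10 of them were followed here in epic2 plants. They are the MADS-box floral promoters AGL24, SOC1 and FUL, the mobile flowering signals FT and TSF, their partner FD, and the floral repressors FLC, SVP, TEM1 and TEM2. The members were chosen by gene symbol, and all 10 were found among the 26765 rows of the authors' deposited table. SOC1, FUL and TEM2 stand there under their older names AGL20, AGL8 and RAV2. The table covers 2 groups in the Col-0 background. The epic2 group comprises 3 samples of epic2 plants and the other group 3 samples of wild type plants, labelled as biological replicates and cut from seedlings (aerial parts) that were 17 days old and had 16 h of light a day at 24 °C. The table names the groups epic2 and silex, and silex was taken to be wild type, the only other genotype in the labels. If silex stands for other plants, each direction below is against those. Which gene is altered in epic2 was not known from the labels, so its own level was not examined.

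In long days FT, and to a lesser degree its close relative TSF, are made in the leaf phloem and move to the shoot apex, where they act with the bZIP factor FD. SOC1 and AGL24 are MADS-domain transcription factors that act at the apex, raise each other's transcription and pass the signal on to the floral meristem identity gene LFY. FLC and SVP are MADS-domain repressors that bind FT and SOC1, and TEM1 and TEM2, of the RAV family, repress FT.

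The authors deposited 1 FPKM value (fragments per kilobase of transcript and per mapped fragments) for each group and gene, pooled over its samples, together with their own Cuffdiff test. Values per sample were not analysed here and the sequencing depth is unknown, so whether single samples overlapped was not tested. The error given beside a log2 fold change of epic2 over silex is the standard error implied by the authors' test statistic, and intervals are 95% intervals from it. A gene was called where the authors' q was under 0.05. Of 18916 rows the authors tested, 18.3% were called, 9.51% higher and 8.8% lower in epic2, and the median log2 fold change was 0.01. Of the 10 genes 9 were tested. AGL24, SOC1, FD, TEM1 and TEM2 fell in the authors' Cuffdiff test and 0 rose. FLC, SVP, FT and FUL did not pass, and TSF was not tested. At an unadjusted p under 0.05 the counts were 6 lower, with FUL, and 1 higher, FLC. The genes were picked with earlier results of these data known, so the share called among them is a description. Because whole shoots were sequenced, fewer cells expressing a gene and less RNA per cell cannot be told apart.

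AGL24, SOC1, FUL, SVP and FLC share a DNA-binding domain encoded at the very start of the coding sequence. Their first 180 coding bases are shown because they are the reason these genes could in principle share reads. They are also shown because AGL24 and SVP, the pair most alike in them, had unlike log2 fold changes. They were read from the RefSeq genome TAIR10.1, on the minus strand at chr4:12673466-12673645 for AGL24, chr2:18810014-18810193 for SOC1, chr5:24505834-24506013 for FUL and chr5:3179160-3179339 for FLC, and on the plus strand at chr2:9580417-9580596 for SVP. Capitals mark the 82 bases that are the same in all 5.
AGL24: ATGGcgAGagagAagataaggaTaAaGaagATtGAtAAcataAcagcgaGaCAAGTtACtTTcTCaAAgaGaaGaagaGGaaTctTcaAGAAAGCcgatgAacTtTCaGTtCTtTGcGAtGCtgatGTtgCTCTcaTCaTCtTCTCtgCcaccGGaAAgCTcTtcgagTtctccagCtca
SOC1: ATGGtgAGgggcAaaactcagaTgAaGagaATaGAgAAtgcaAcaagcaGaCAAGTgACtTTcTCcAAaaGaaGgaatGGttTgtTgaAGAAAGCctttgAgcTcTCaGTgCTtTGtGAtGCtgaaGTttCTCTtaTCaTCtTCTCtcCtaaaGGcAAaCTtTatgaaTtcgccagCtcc
FUL: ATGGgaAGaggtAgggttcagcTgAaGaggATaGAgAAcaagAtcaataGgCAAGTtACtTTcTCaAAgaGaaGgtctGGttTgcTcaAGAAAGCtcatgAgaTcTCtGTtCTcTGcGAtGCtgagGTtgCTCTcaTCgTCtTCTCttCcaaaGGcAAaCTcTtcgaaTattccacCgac
SVP: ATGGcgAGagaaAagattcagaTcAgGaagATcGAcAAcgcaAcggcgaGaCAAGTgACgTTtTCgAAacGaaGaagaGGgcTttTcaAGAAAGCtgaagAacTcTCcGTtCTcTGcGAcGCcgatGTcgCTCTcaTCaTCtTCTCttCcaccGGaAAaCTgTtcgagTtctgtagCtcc
FLC: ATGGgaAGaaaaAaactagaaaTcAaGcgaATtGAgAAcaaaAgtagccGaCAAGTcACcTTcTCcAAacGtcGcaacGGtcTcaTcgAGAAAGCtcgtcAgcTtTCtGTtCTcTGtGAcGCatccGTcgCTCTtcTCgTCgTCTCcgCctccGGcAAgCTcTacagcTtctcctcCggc
AGL24 and SVP were the most alike of the 10 pairs, with 146 of 180 bases the same (81.1%), and SOC1 and AGL24 had 129 (71.7%). FLC was the least like the others, with 113 to 116 bases in common with each. Over their whole coding sequences AGL24 and SVP matched at 69.1% of aligned bases and shared no stretch of 50 bases, which is the read length in the labels. Among the 10 genes, each 50-base word within an exon occurred only once in the TAIR10.1 genome, so exact matches do not put reads of 1 of these genes on another. Words across exon junctions and reads with mismatches were not counted.

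AGL24, a promoter of flowering and a direct activator of SOC1 and LFY, fell furthest of the 10. It stood at 6.12 FPKM in epic2 plants and 33.3 FPKM in silex plants, or 18.3% of the silex level. The log2 fold change in the authors' deposited table was -2.45 with an implied standard error of 0.17, and the interval ran from -2.78 to -2.11. The authors' p-value and q-value are both listed as 0, and the statistic of 14.4 corresponds to p = 8.78e-47. Among 6591 tested rows whose mean FPKM lay within 2-fold of its own, 4 had a lower log2 fold change. In silex AGL24 had the third highest level of the 10 genes and in epic2 the sixth.

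SOC1, the MADS-box integrator that AGL24 activates and partners, fell much less. It stood at 18.8 FPKM in epic2 and 27.1 FPKM in silex. In the authors' Cuffdiff test this was a log2 fold change of -0.53 ± 0.11 (implied standard error), at q = 5.06e-05. Its interval, from -0.76 to -0.31, does not reach that of AGL24. Of 6220 tested rows of like level 290 changed further downward than SOC1. With a p-value multiplied by the number of tested rows (Bonferroni), SOC1 no longer passed, at an adjusted p of 0.0667 from the same test.

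FUL, a MADS-box promoter of flowering that overlaps with SOC1 in function, was weakly expressed and did not pass. It stood at 0.717 FPKM in epic2 and 1.71 FPKM in silex. The log2 fold change was -1.25 ± 0.50 (implied standard error), with q = 0.0524 in the authors' Cuffdiff test. The interval, from -2.24 to -0.27, lies below 0, while the q lies just past the threshold. With 1 FPKM added to both values before the logarithm, the log2 fold change was -0.66.

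**Figure D1:**
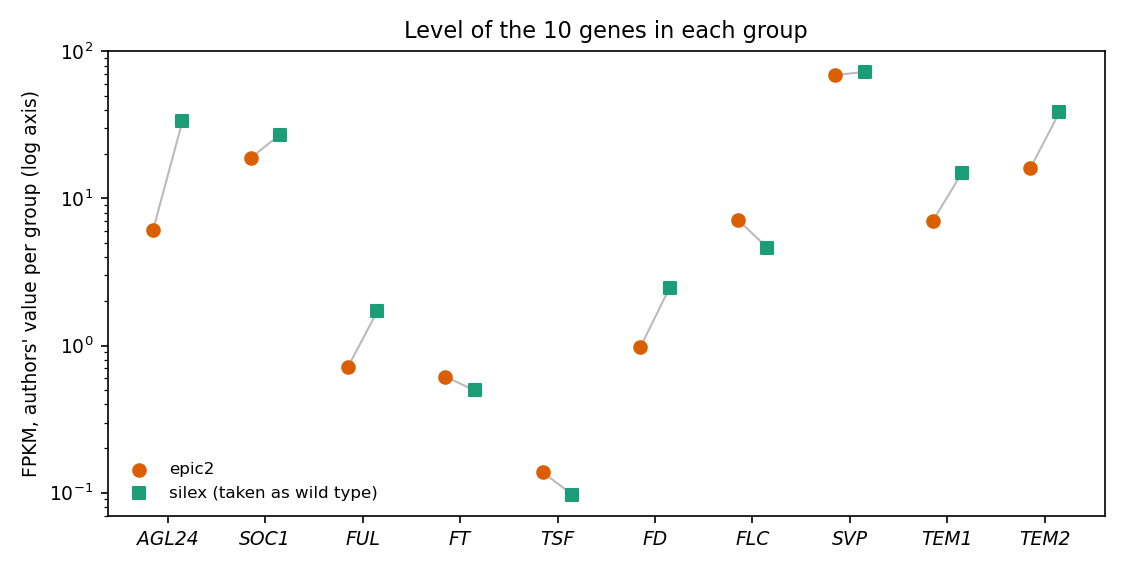
FPKM of the 10 genes on a log axis, with a circle for epic2 and a square for silex, each the authors' 1 value per group. AGL24 shows the widest gap, at 6.12 FPKM in epic2 and 33.3 FPKM in silex, while SVP lies at 68.9 FPKM in epic2 and 72.4 FPKM in silex.

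FT, the florigen, was near the bottom of the measured range in both groups. It stood at 0.615 FPKM in epic2 and 0.495 FPKM in silex and did not pass. In the authors' Cuffdiff test this was a log2 fold change of 0.31 ± 0.72 (implied standard error), at q = 0.823. The interval ran from -1.10 to 1.72, so that ratios from 0.467 to 3.30 lie within it. TSF stood lower still, at 0.138 FPKM in epic2 and 0.0972 FPKM in silex, and the authors' program did not test it. FT and TSF encode proteins of 175 residues each and match at 82.2% of aligned coding bases, with no stretch of 50 bases in common. At these levels a change of either gene smaller than about its interval was not detectable. Markers of the phloem, where both are made, were measured well. SUC2, the sucrose carrier of companion cells, stood at 98.6 FPKM in epic2 and 101.6 FPKM in silex, and APL, a regulator of phloem identity, at 13.7 FPKM in epic2 and 12.8 FPKM in silex. Neither was called.

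FD, which brings FT to its target genes at the apex, fell. It stood at 0.977 FPKM in epic2 and 2.47 FPKM in silex. The log2 fold change was -1.34 ± 0.36 (implied standard error), with q = 0.00203 in the authors' Cuffdiff test. Its interval, from -2.05 to -0.62, was the widest among the genes that fell, and Bonferroni adjustment of the authors' Cuffdiff p removed the call. On the log2(FPKM + 1) scale, which damps weak genes, the change was -0.81. FDP, its closest bZIP relative, stood at 0.262 FPKM in epic2 and 0.736 FPKM in silex and did not pass. Of 10 other FT and FD partners with a row tested, FDP included, 1 fell and 0 rose. Over all tested rows 8.8% were called lower and 9.51% higher, so 1 fall among these partners does not stand out. The partner that fell was GRF4, a 14-3-3 protein gene, at 67.0 FPKM in epic2 and 81.3 FPKM in silex. GRF4 lost its call at a q of 0.01.

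**Figure D2:**
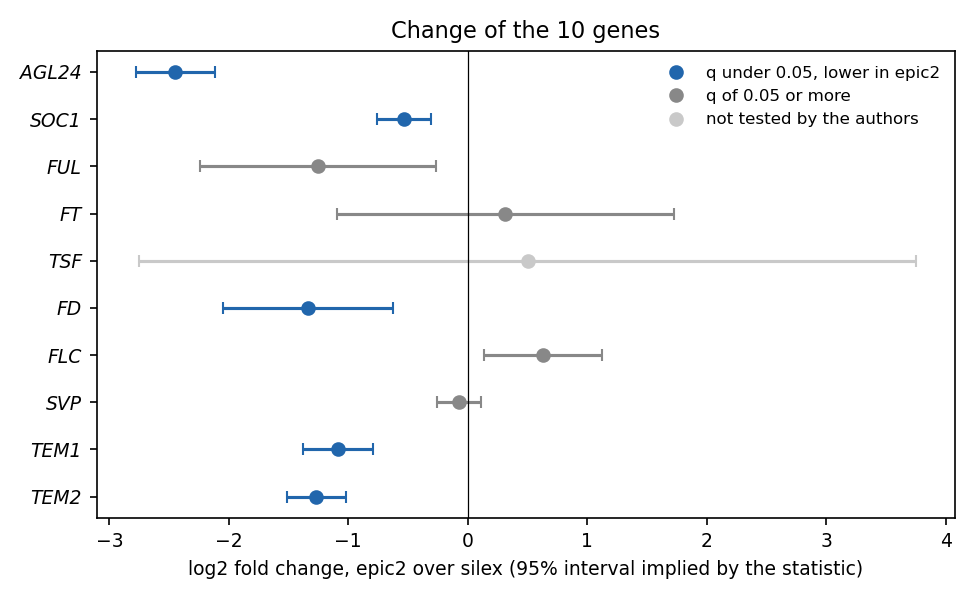
Log2 fold change of epic2 over silex for each of the 10 genes, with 95% intervals implied by the authors' statistic. AGL24, SOC1, FD, TEM1 and TEM2 are called lower, and the interval of TSF, which was not tested, spans -2.75 to 3.75.

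Among the repressors, both RAV genes were called lower and neither MADS-box gene was called. FLC, the repressor that vernalization silences, stood at 7.17 FPKM in epic2 and 4.64 FPKM in silex. Its log2 fold change of 0.63 had an implied standard error of 0.25 and an interval from 0.13 to 1.12, and at q = 0.0520 in the authors' Cuffdiff test it did not pass. Benjamini-Hochberg adjustment over all tested rows gave 0.0686. In RefSeq a long non-coding RNA, AT5G01675, overlaps the FLC row (chromosome 5, 3173497 to 3179448 in the table). The labels do not say that reads were counted by strand, so the value may hold reads of both.

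SVP, which represses FT and SOC1 and acts in the response to ambient temperature, was the most strongly expressed of the 10 genes in both groups. It stood at 68.9 FPKM in epic2 and 72.4 FPKM in silex and did not pass. In the authors' Cuffdiff test this was a log2 fold change of -0.07 ± 0.09 (implied standard error), at q = 0.656. The interval runs from -0.26 to 0.11, or ratios of 0.838 to 1.08. Its relative AGL24 thus fell to 18.3% of the silex level, and SVP stood at 95.1% of it in the same plants. The difference between these changes was not itself tested, and the intervals do not overlap.

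TEM1 and TEM2, which repress FT and the gibberellin genes GA3OX1 and GA3OX2, both fell. TEM1 stood at 7.03 FPKM in epic2 and 14.9 FPKM in silex. The log2 fold change was -1.08 ± 0.15 (implied standard error), with q = 1.49e-11 in the authors' Cuffdiff test. TEM2 stood at 16.0 FPKM in epic2 and 38.5 FPKM in silex, a log2 fold change of -1.27 ± 0.12 (implied standard error) with a q listed as 0 in the authors' Cuffdiff test. The intervals overlap, at -1.38 to -0.79 for TEM1 and -1.51 to -1.02 for TEM2. Of rows of like level, 87 of 7015 changed further downward than TEM1 and 25 of 5701 further than TEM2. The coding sequences of the pair match at 80.7% of aligned bases, with no stretch of 50 bases in common.

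**Figure D3:**
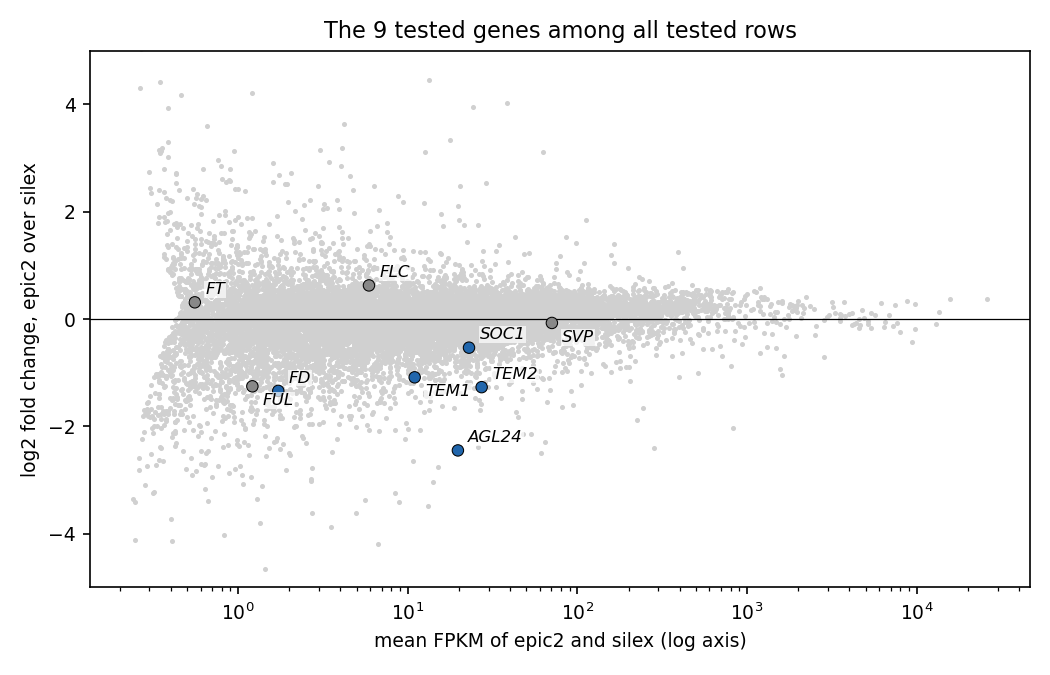
Log2 fold change of epic2 over silex against mean FPKM (log axis) for 18832 tested rows with values above 0 in both groups, with the 9 tested genes drawn large, blue where called lower and dark grey where not called. AGL24 lies at the lower edge of the rows of its level, SVP lies near 0, and 6 rows beyond 5 on the vertical axis are not drawn.

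The windows from 250 bases before to 50 bases after the RefSeq start of the 10 genes were searched on both strands for the core GTAC of SPL factors, the G-box CACGTG, the RAV element CACCTG and the CArG box of MADS-domain factors. GTAC occurred in 8 of the 10 windows and in 39.0% of those of 27443 protein-coding genes. CACGTG occurred in 1, that of FLC, where it overlaps a GTAC by 1 base, and in 7.68% of all. CACCTG and the CArG box occurred in 0 of the 10, and in 3.31% and 3.05% of all windows. GTAC was in the windows of SOC1, TEM1 and TEM2, which fell, and of FT, FLC, SVP and FUL, which were not called. It was also in that of TSF, which was not tested. The windows of AGL24 and FD, which fell, held none of the motifs. Those of TEM1 (minus strand, chr1:8983265-8983564) and TEM2 (plus strand, chr1:25879905-25880204) are shown because this related pair fell together and because TEM2 held the most GTAC cores, 4 against 2 in TEM1. Both are from TAIR10.1, and capitals mark GTAC.
TEM1: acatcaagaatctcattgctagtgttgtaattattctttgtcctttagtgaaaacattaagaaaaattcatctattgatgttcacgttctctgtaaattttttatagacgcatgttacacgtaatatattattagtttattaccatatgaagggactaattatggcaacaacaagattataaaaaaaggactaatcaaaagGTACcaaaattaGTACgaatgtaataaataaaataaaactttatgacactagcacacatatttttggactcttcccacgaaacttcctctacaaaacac
TEM2: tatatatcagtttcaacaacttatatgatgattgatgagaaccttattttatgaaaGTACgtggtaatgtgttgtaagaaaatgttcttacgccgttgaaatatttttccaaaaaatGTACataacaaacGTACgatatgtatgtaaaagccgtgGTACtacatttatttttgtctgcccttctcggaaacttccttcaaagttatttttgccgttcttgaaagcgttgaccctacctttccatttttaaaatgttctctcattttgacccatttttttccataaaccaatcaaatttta
A match of these letters describes the window and is not evidence of binding.

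FPKM is a level per length, so the genes can also be ordered by it. In epic2 the order was SVP, SOC1, TEM2, FLC, TEM1, AGL24, FD, FUL, FT and TSF, and in silex it was SVP, TEM2, AGL24, SOC1, TEM1, FLC, FD, FUL, FT and TSF. With 1 value per group, neighbours in these orders cannot be told apart by their spread.

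Relatives of the 10 genes were examined next. In the RAV family, where TEM1 and TEM2 belong, 7 of 9 other genes were tested, 2 fell and 0 rose. That was 28.6% called, against 18.3% of all tested rows, and the median log2 fold change was -0.38. RAV1, a growth repressor close to TEM1 and TEM2, stood at 7.94 FPKM in epic2 and 15.4 FPKM in silex (log2 fold change -0.96, q = 1.34e-10 in the authors' Cuffdiff test). NGA1, which shapes leaf margins and the style, stood at 7.74 FPKM in epic2 and 11.7 FPKM in silex (log2 fold change -0.59, q = 0.000658 in the same test). EDF3, the remaining close relative of TEM1 and TEM2, shares its row with another gene and gave no value of its own.

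In the FLC clade, all 5 of MAF1 to MAF5 were tested, and none was called by the authors' Cuffdiff test or had an unadjusted p under 0.05. Their log2 fold changes lay between -0.12 and 0.39. The intervals were wide for some of them, from -0.54 to 1.31 for MAF4, which stood at 7.74 FPKM in epic2 and 5.92 FPKM in silex. Their summed level was 92.0 FPKM in epic2 and 96.3 FPKM in silex. MAF1, also called FLM and a partner of SVP, was the most abundant, at 42.9 FPKM in epic2 and 46.6 FPKM in silex. Of 15 other MADS-box genes 7 were tested, 1 rose and 1 fell, or 28.6% called against 18.3% of all tested rows. AGL15, an embryo gene that also represses flowering, rose to 4.25 FPKM in epic2, against 1.40 FPKM in silex (log2 fold change 1.60, q = 0.0147 in the authors' Cuffdiff test). AGL19, a promoter of flowering under Polycomb control, was listed at 0 in epic2 and at 1.01 FPKM in silex (q = 0.0458 in the same test). Both AGL15 and AGL19 lost their calls at a q of 0.01. AGL19 also lost its call under Benjamini-Hochberg adjustment over all tested rows. AGL42, AGL71 and AGL72, of the SOC1 clade, stood at or below 0.310 FPKM in epic2 and 0.990 FPKM in silex. In the PEBP family of FT, 3 of the 4 others were tested, and none was called or had an unadjusted p under 0.05 in the authors' Cuffdiff test. TFL1, which opposes FT at the apex, stood at 0.783 FPKM in epic2 and 1.44 FPKM in silex.

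Upstream of FT, 4 of 20 tested photoperiod genes fell and 1 rose, or 25.0% called against 18.3% of all tested rows. The median log2 fold change of the list was 0.01, that of all tested rows. The 4 that fell were CDF1, CDF2, CDF3 and CDF5, DOF factors that repress CO and FT. CDF5 stood at 5.35 FPKM in epic2 and 9.16 FPKM in silex (log2 fold change -0.78, q = 2.17e-05 in the authors' Cuffdiff test), and CDF2 at 12.4 FPKM in epic2 and 17.4 FPKM in silex (log2 fold change -0.49, q = 0.0244). CDF1 and CDF3 each had a log2 fold change of -0.26, and along with CDF2 they lost their calls at a q of 0.01, as did PHYB. PHYB, a red light receptor that delays flowering, was called higher, at 24.2 FPKM in epic2 and 20.3 FPKM in silex (q = 0.0244). CO, the activator of FT, stood at 1.11 FPKM in epic2 and 0.506 FPKM in silex and did not pass (log2 fold change 1.14). GI and FKF1, which remove CDF proteins in the afternoon, stood at 2.54 and 1.09 FPKM in epic2 and at 2.78 and 1.27 FPKM in silex, and neither was called. The hour of harvest was not examined here, so the levels of these photoperiod genes and of FT are not placed within the day.

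The pathways that set FLC were nearly without calls. None of 8 tested autonomous pathway genes, which lower FLC, and none of 20 tested FLC activators was called by the authors' Cuffdiff test. At an unadjusted p under 0.05 there was 1 autonomous gene, FVE, at 38.7 FPKM in epic2 and 33.0 FPKM in silex, and 0 FLC activators. Of 13 tested Polycomb and vernalization genes 1 fell and 0 rose, or 7.69% called against 18.3% of all tested rows. The gene that fell was VAL1, a B3 factor that recruits Polycomb to FLC. It stood at 9.54 FPKM in epic2 and 12.0 FPKM in silex (log2 fold change -0.34, q = 0.00923 in the authors' Cuffdiff test). VIN3, the gene induced by prolonged cold, was listed at 0 in both groups. FRI, the activator of FLC in winter-annual plants, stood at 3.70 FPKM in epic2 and 3.79 FPKM in silex. None of the 6 AP2-type repressors of FT was called, and at an unadjusted p under 0.05 in the authors' Cuffdiff test SNZ was higher and TOE3 lower.

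**Figure D4:**
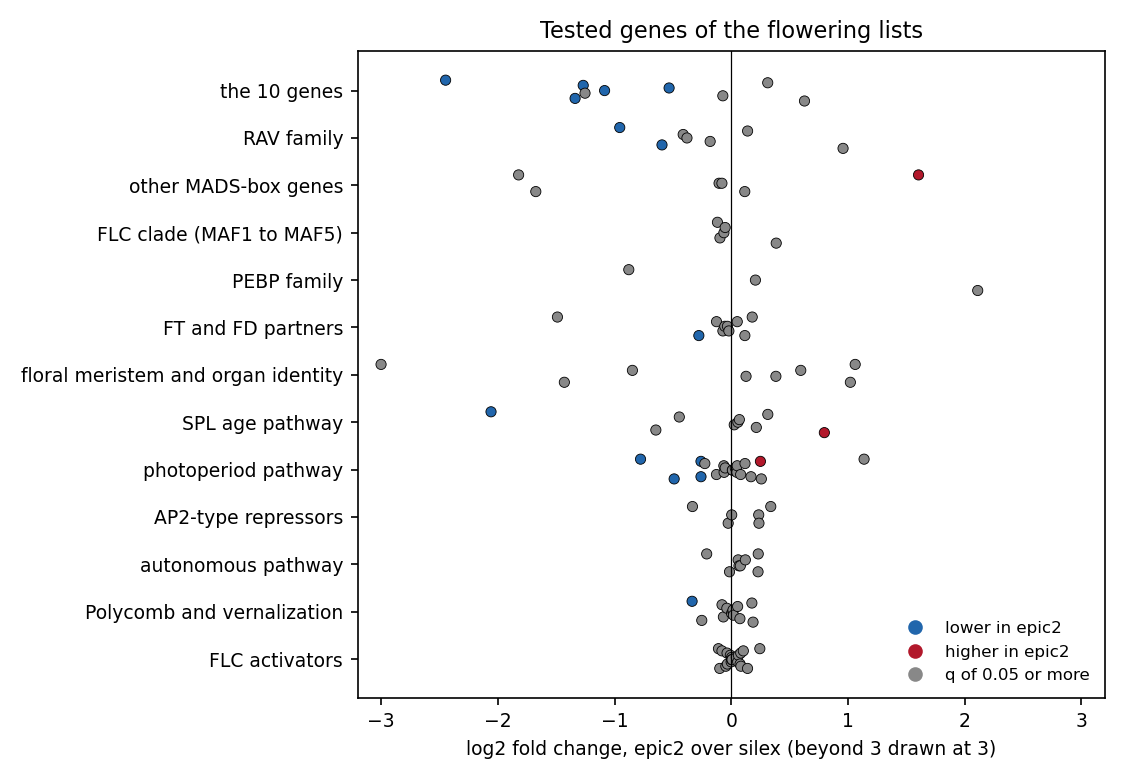
Log2 fold change of epic2 over silex for each tested gene of the flowering lists, with blue for called lower, red for called higher and grey for not called. The RAV family and the photoperiod list hold 2 and 4 blue points, AGL19 has no fold change and is not drawn, and LFY, at -5.07, is drawn at -3.

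Downstream, none of 8 tested genes of floral meristem and organ identity was called by the authors' Cuffdiff test. Of these, 5 had a log2 fold change above 0 and 3 below, with a median of 0.25. The genes of the list that were not tested are outside that count. Of them AP1, CAL (0.0196 FPKM in epic2 and 0.151 FPKM in silex) and SEP2 had lower values in epic2, and AP3 a higher one. At an unadjusted p under 0.05 SEP4 was higher and LFY lower. LFY, which AGL24 and SOC1 activate, stood at 0.0155 FPKM in epic2 and 0.520 FPKM in silex and was not called (q = 0.141 by the authors' Cuffdiff test). Its log2 fold change of -5.07 had a wide interval, from -10.06 to -0.08. AP1, which marks the young flower, was not tested, at 0.0160 FPKM in epic2 and 0.395 FPKM in silex. SEP4, which is also expressed in leaves, was the most abundant, at 20.0 FPKM in epic2 and 15.4 FPKM in silex. Of 9 SPL genes of the age pathway, which activate SOC1, FUL and LFY, 1 fell and 1 rose. That was 22.2% called, against 18.3% of all tested rows. SPL3 stood at 3.24 FPKM in epic2 and 13.5 FPKM in silex, and SPL11 at 15.5 FPKM in epic2 and 8.93 FPKM in silex (log2 fold change 0.80, q = 0.00104 in the authors' Cuffdiff test).

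In all, 116 genes of these lists other than the 10 were tested, of which 3 rose and 10 fell, or 11.2% called against 18.3% of all tested rows. Their median log2 fold change was 0.01. Of the 10 that fell, SPL3, at -2.06, had a lower fold change than TEM2, and AGL19 has none.

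The tissue was checked against marker genes. The leaf genes CA1, GAPA and LHCB5 stood between 2626 and 6767 FPKM in epic2 and between 2299 and 6661 FPKM in silex. The shoot meristem genes STM and KNAT1, which mark the tissue where AGL24, SOC1 and FD act, stood at 5.10 and 3.59 FPKM in epic2 and at 5.28 and 4.07 FPKM in silex, with neither called. WUS and CLV3 of the stem cell niche were at or below 0.0524 FPKM in epic2 and 0.179 FPKM in silex. The 6 flower markers AP3, PI, AG, SEP1, SEP2 and SEP3 summed to 3.47 FPKM in epic2 and 2.68 FPKM in silex, and none of the 4 tested was called. SEP3, at 1.83 FPKM in epic2 and 0.878 FPKM in silex, was the largest part of both sums. AP3, PI and SEP3 had higher values in epic2, and AG, SEP1 and SEP2 had lower ones. Of 6 root markers IRT1, RHD6, COBL9 and EXP7 were at or below 0.0507 FPKM in both groups. CASP1 was called higher, at 1.52 FPKM in epic2 and 0.252 FPKM in silex, and PYK10, which young shoots also express, was called lower, at 51.8 FPKM in epic2 and 130.9 FPKM in silex. The part of these in the changes of the 10 genes was not tested.

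The chromosome neighbours of each gene were then set beside it. Of the 20 tested rows that flank the 5 genes that fell, 2 on each side, 3 were called, all lower, with log2 fold changes of all 20 between -0.88 and 0.26. Next to AGL24 (chromosome 4, 12670920 to 12674092 in the table), AT4G24530 and AT4G24550 had log2 fold changes of -0.21 and 0.10 and were not called. Beyond AT4G24530, ATR1, a reductase of cytochrome P450 enzymes, was called lower at 33.9 FPKM in epic2 and 41.1 FPKM in silex (log2 fold change -0.28), a call lost at a q of 0.01. No flanking row of SOC1 or FD was called. AT1G25550 beside TEM1 fell to 16.2 FPKM in epic2, against 24.7 FPKM in silex (log2 fold change -0.61). Near TEM2, a row named SOFL2 fell to 9.61 FPKM in epic2, against 17.0 FPKM in silex (log2 fold change -0.82). Another row named SOFL2, 4 tested rows from TEM2, was not called. It went the other way, at 8.27 FPKM in epic2 and 4.26 FPKM in silex (log2 fold change 0.96). Of the 40 rows flanking all 10 genes, 8 were called lower and 1 higher, while over all tested rows 8.8% were called lower and 9.51% higher. Beside FUL, RLK1 and COB were lower, at log2 fold changes of -1.59 and -0.50, and AT5G60930 was higher at 0.51. Near FLC, AT5G10100 was lower at -2.46, with 0.203 FPKM in epic2 and 1.12 FPKM in silex, and AT5G10150 was lower at -0.30, a call lost at a q of 0.01. Near FT, AT1G65450 was lower at -0.82. RLK1 ends 987 bases from the FUL row and COB starts 5052 bases from it. Those calls beside genes that did not fall were singled out after their values were seen.

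**Figure D5:**
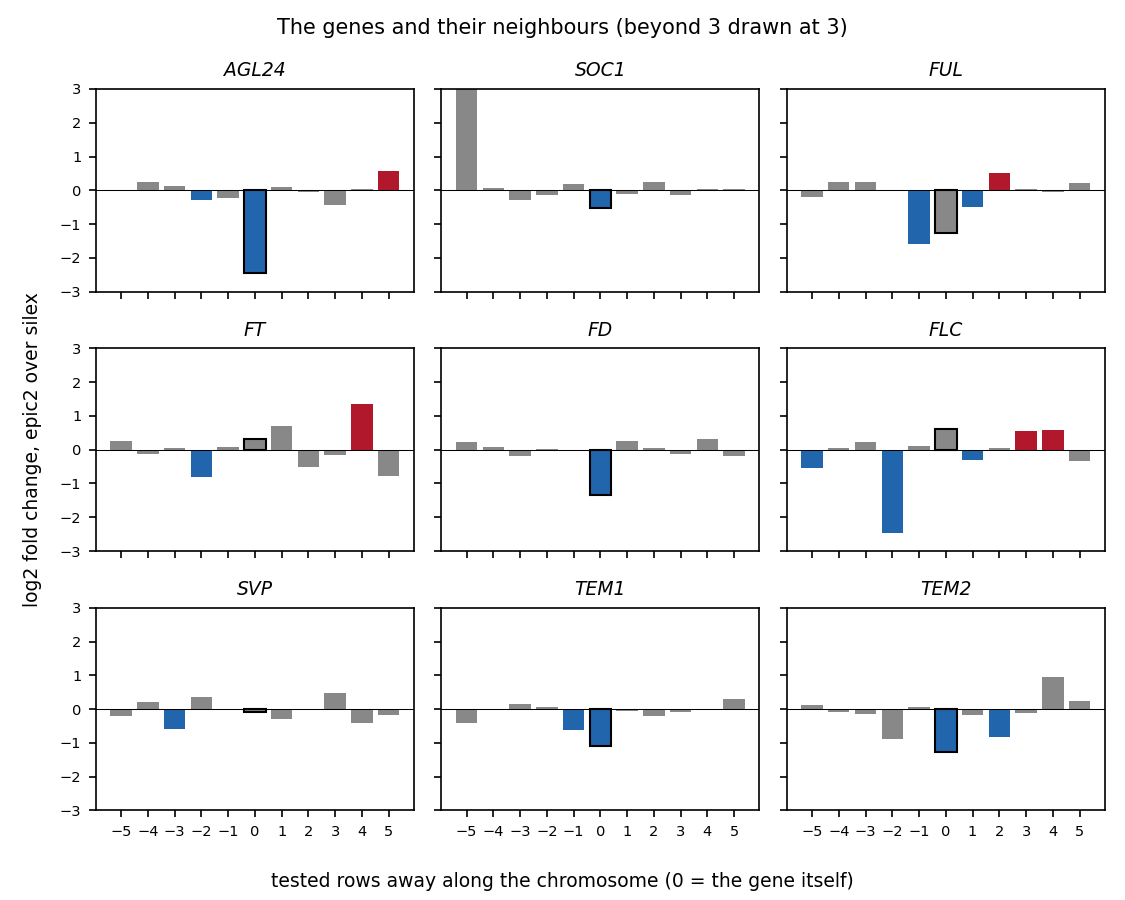
Log2 fold change of epic2 over silex for each of the 9 tested genes (outlined, at 0) and the 5 tested rows on either side along the chromosome, with blue for called lower, red for called higher and grey for not called. The bar of AGL24, at -2.45, is the longest in its panel, while FUL lies between RLK1 at -1.59 and COB at -0.50, and 1 bar beyond 3 is drawn at 3.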

How the data were processed

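Total RNA of 6 samples, 3 epic2 and 3 wild type, was sequenced as single 50-base reads from TruSeq libraries, per the labels' protocols. The build TAIR10 and the tools TopHat, Cufflinks and Cuffdiff are named in the submitters' processing notes, with settings not given in the sources used here. The authors deposited 1 pooled FPKM value per group, their log2 fold change, their test statistic (treated as a score) and their p-value and q-value for 26765 rows. Of these rows 18916 were tested and 7783 lacked data, the test failed in 62 and 4 held too much. How the authors' test modelled replicates and how libraries were scaled are not given in the sources used here, and its p-values reflect no more than the variation among these samples, which the labels do not tie to separate cultures. The deposited p-value matched a two-sided normal test of the statistic within 2.8e-06, in the 18832 tested rows with both values above 0. The standard error was therefore computed as the absolute value of the log2 fold change over the statistic. In the 10 genes the deposited statistic has the opposite sign to the log2 fold change.

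Genes were joined to rows by symbol, synonym or locus tag together with position in the RefSeq annotation of TAIR10.1, and 99.7% of 23740 rows joined by symbol overlapped the gene of that name. The SEP genes, whose names the table holds as day numbers, were joined by position. Genes in rows of several genes were left out. The members and lists were chosen with earlier results of these data known. All 10 members, up to 4 called genes of each list (largest changes first) and called rows within 2 of a called member were named. Others are given for context and were chosen after their values were seen. Alternatives were a q of 0.01 or 0.10, a 2-fold minimum, Benjamini-Hochberg or Bonferroni adjustment over tested rows, a minimum mean of 1 FPKM, pseudocounts of 1 and 0.1 FPKM, and centring on the median. The adjustment step was tested on simulated data. Coding sequences were aligned globally with Biopython 1.88. The other tools were scipy 1.17.1, numpy 2.4.6, pandas 2.3.3 and matplotlib 3.10.9 in Python 3.11.15.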

Additional observations from a re-analysis of the deposited data

How the results depend on the processing

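No paired analysis was possible because the table holds 1 pooled value per group, and for the same reason no sample could be left out in turn. Of the 10 genes 5 were called lower and 0 higher. Both counts kept within 1.5 times under each alternative except a q of 0.10, with 1 higher (FLC, and FUL as a further gene lower), and Bonferroni adjustment, with 3 lower (AGL24, TEM1 and TEM2). Over the other flowering lists 3 genes were higher and 10 lower. A q of 0.01 gave 1 and 5, a q of 0.10 gave 6 higher, Bonferroni adjustment gave 0 and 3, and the 2-fold minimum gave 1 and 2. In the families of the members 1 gene was higher and 3 lower. A q of 0.01 gave 0 higher, Bonferroni adjustment gave 0 and 1, and the 2-fold minimum gave 1 lower. Of the flanking rows 1 was higher and 8 lower, against 0 and 3 under Bonferroni adjustment and 0 and 2 with the 2-fold minimum. These settings are stricter or looser by construction. The log2 fold changes of the 10 genes kept their sign with either pseudocount and after centring. Those of AGL24, FD and FUL moved by more than their implied standard error with a pseudocount of 1 FPKM, to -2.27, -0.81 and -0.66. FT lies under the minimum of 1 FPKM and has no value there. Weak expression limits FT, TSF, FUL and LFY, whose implied errors are wide, and depth is unknown.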
